A study of Mus musculus with 45 samples.

Results

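The genes described here build the contractile apparatus of smooth muscle and tie it to the cell membrane. They were a list of 36 gene symbols, and all 36 had counts among the 24422 genes of the table. The group comprised 2 actin isoforms, 6 myosin subunits and myosin regulators, 7 thin filament proteins, 2 intermediate filament proteins, 13 proteins of adhesion sites and dense plaques, 2 transcription regulators, 2 small calmodulin-binding proteins, and 2 further genes, Fbxo32 and Psd. Their expression was measured in female CD-1 mice, an outbred stock, that were either wildtype (WT) or knockout for Plag1 (Plag1KO, KO), a zinc finger transcription factor. In the KO allele, lacZ stands in place of the Plag1 coding region in every cell of the animal. All mice of both genotypes were sexually mature young females that received pregnant mare serum and then human chorionic gonadotropin to induce superovulation, and were killed on the day after the second hormone. Each uterus gave a piece of intact horn (uterus), cells scraped from the opened mucosa (endometrium) and the wall that remained after scraping (myometrium). Thus every tissue was separated by hand and not sorted, and each holds several cell types. There were 7 WT and 7 KO mice with all 3 tissues, which made 42 mouse and tissue samples in 6 groups of 7.

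A contractile smooth muscle cell shortens when myosin filaments pull on actin filaments. Calcium bound to calmodulin activates myosin light chain kinase, the kinase phosphorylates the regulatory light chain of myosin, and myosin phosphatase reverses this step. Actin filaments are anchored in dense bodies and in plaques at the membrane, and desmin filaments link these anchors. The transcription factor Srf binds a short promoter element, the CArG box, and its coactivator Myocd turns on many contractile genes through it. In the uterus this muscle forms the myometrium, the layer that contracts in labour, whereas the endometrium consists mainly of epithelium, stroma and vessels.

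The 45 libraries held between 264095 and 1232992 counts, so that 3 counts, used here as the detection floor, corresponded to between 2.45 and 11.7 CPM, the count of a gene scaled to the depth of its library. Libraries made from the same mouse and tissue were summed. Plag1 itself had 2 counts in all 21 WT samples and 5 in all 21 KO samples, with at most 1 count per sample. The protocol reads the 5′ ends of transcripts, which lie outside the replaced coding region, so these counts check no genotype. Of the 36 genes, 26 had at least 3 counts in all 42 samples, and the fewest counts over all samples belonged to Itga8 with 198, Ppp1r12b with 199, Ldb3 with 214 and Myocd with 218. The tissue labels were checked with markers. Summed over 8 epithelial markers, levels ran from 1573 to 5510 CPM in endometrium and from 135 to 826 CPM in 13 of the 14 myometrium samples, with 1429 CPM in the myometrium of WT mouse 5. In bulk tissue, fewer cells of a type and less RNA per cell cannot be told apart.

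The promoters of these genes are shown first because the members moved together between layers and Srf is itself a member. RefSeq promoter windows (build GRCm38.p6, 250 bases before to 50 bases after the annotated start) matched 31 of the 36 genes, the others being Actg2, Tagln, Myh11, Myocd and Fbxo32. Both strands were searched for the CArG box, read as CC, then 6 letters that are each A or T, then GG. Of the 31 genes, 5 (16.1%) held an exact box, against 1.81% of 27025 genes with such windows. These were Myl9, Myl6, Vcl, Ldb3 and Srf. A box with 1 changed base was read as 1 C or G among the 6 middle letters, and changes in the CC or GG were not searched. Such a box stood in 8 of the 31 genes (25.8%), against 9.69% of all genes, namely Acta2, Myl9, Pcp4, Pcp4l1, Synm, Pdlim3, Lpp and Psd. Either form was found in 12 (38.7%) against 11.3%. A match describes letters in the window and is not evidence of binding, and boxes further away or within introns were not searched. The first 3 stretches are whole windows, and the other 3 are the boxes with 20 bases on each side, 5′ to 3′ on the strand of the gene, with the boxes in capitals.
Acta2, chr19:34255324-34255623, minus strand, 2 boxes with 1 changed base each: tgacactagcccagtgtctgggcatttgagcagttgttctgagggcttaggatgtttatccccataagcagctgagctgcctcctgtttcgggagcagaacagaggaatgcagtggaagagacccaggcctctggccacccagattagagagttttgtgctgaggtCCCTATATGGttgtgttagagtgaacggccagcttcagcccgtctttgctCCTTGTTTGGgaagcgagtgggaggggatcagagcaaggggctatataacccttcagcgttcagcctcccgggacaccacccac
Myl9, chr2:156775214-156775513, plus strand, 1 exact box and then 1 with a changed base: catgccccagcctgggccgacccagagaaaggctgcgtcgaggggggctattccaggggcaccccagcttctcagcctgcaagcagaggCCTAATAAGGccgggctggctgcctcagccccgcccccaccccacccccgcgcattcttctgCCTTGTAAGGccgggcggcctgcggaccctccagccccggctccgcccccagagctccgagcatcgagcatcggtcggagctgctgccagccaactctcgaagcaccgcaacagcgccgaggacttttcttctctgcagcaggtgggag
Vcl, chr14:20929148-20929447, plus strand, 1 exact box: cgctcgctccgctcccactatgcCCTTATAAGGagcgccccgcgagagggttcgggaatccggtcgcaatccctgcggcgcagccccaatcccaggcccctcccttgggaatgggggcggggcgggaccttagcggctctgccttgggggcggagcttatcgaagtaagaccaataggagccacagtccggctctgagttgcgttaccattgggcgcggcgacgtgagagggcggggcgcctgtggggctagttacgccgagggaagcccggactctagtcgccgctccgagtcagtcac
Srf, chr17:46556195-46556264, minus strand, 2 exact boxes: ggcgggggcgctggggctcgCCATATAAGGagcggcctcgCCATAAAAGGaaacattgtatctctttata
Myl6, chr10:128493030-128493079, minus strand, 1 exact box: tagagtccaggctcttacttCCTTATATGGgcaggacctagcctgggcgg
Ldb3, chr14:34588687-34588736, minus strand, 1 exact box: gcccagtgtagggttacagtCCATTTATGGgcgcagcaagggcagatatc
The boxes of Acta2 began 84 and 34 bases upstream of the annotated start, those of Srf 82 and 62 bases, and those of Myl9 161 and 99 bases. The box of Vcl lay further out, 227 bases upstream, and that of Myl6 nearer, at 50 bases.

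Across the layers, the whole group was far lower in scraped endometrium than in the remaining myometrium, and intact uterus lay in between. Summed over the 36 genes, the level in WT mice was 9508 ± 9713 CPM in endometrium, 33535 ± 8861 CPM in uterus and 61825 ± 18841 CPM in myometrium (SD, n = 7 mice). In KO mice the sums were 7835 ± 11339, 35519 ± 7262 and 67926 ± 15307 CPM in the same order. The SDs in endometrium exceeded their means in both genotypes. Without 1 mouse each, WT mouse 3 and KO mouse 13, the endometrium sums were 6087 ± 3858 CPM in WT and 3556 ± 721 CPM in KO. Set in pairs within mice, endometrium was below myometrium in 7 of 7 WT mice for 31 of the 36 genes, and in 7 of 7 KO mice for 29. The share of all genes with this order in every mouse was not counted. The plot of all genes by mouse shows the layers as bands of colour, with 2 endometrium samples that resemble intact uterus.

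**Figure D1:**
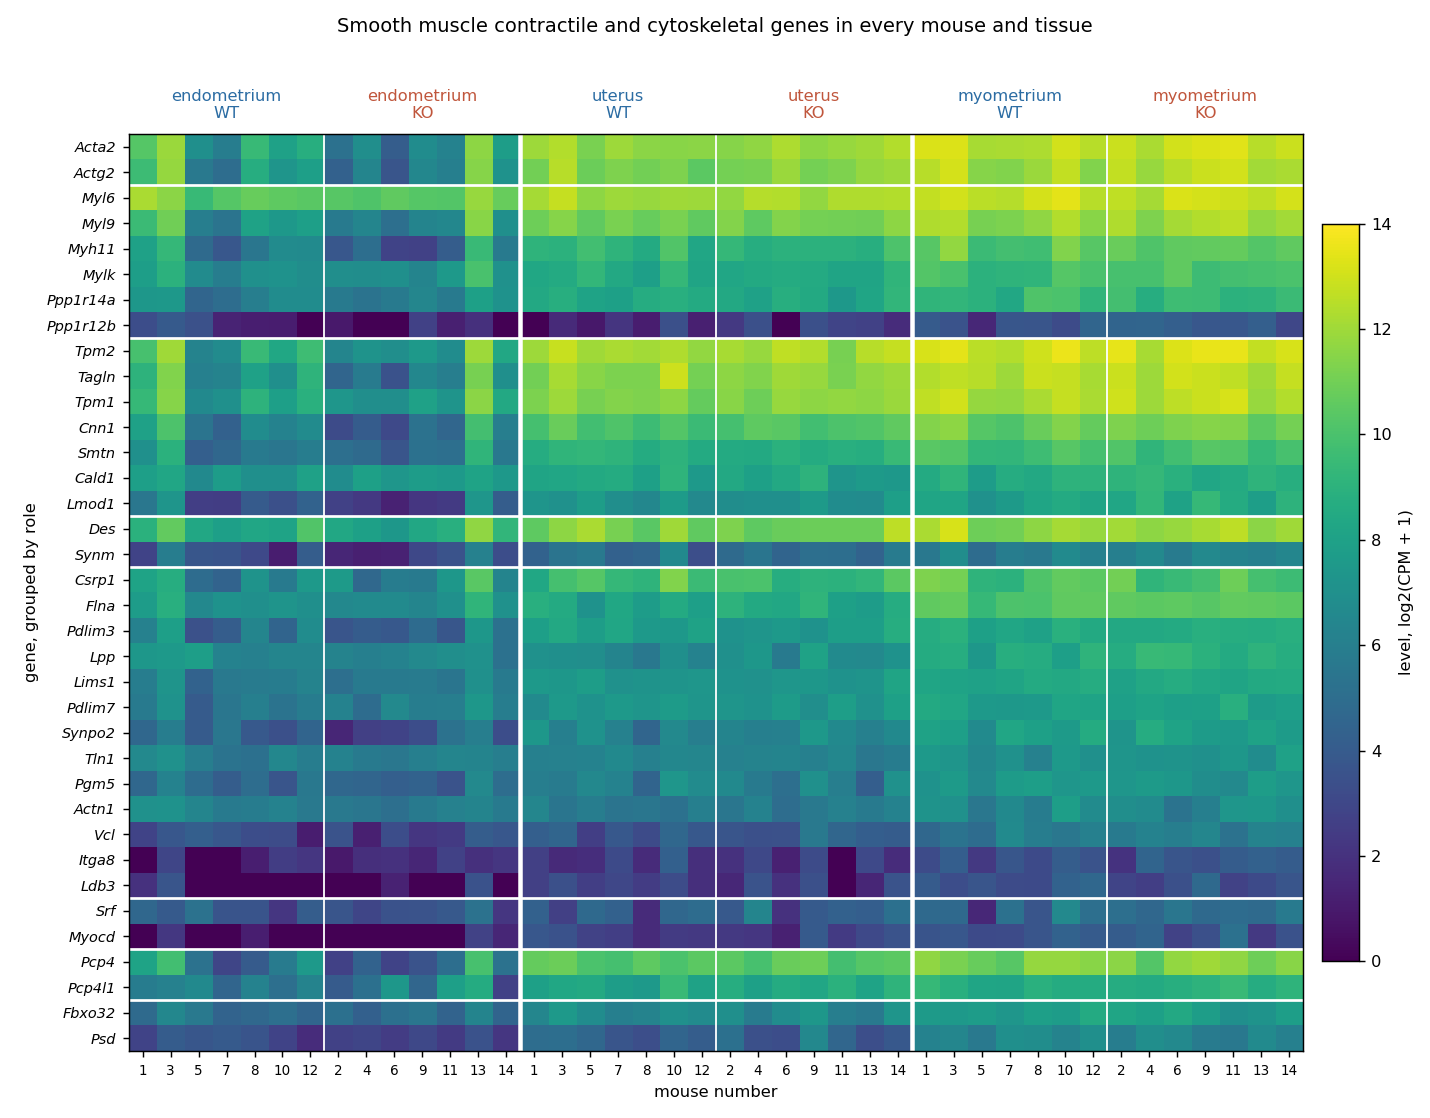
Level of each of the 36 genes (rows, grouped by role) in each of the 42 mouse and tissue samples (columns, grouped by tissue and genotype), as log2(CPM + 1). Endometrium is the darkest block (lowest levels) in both genotypes except in WT mouse 3 and KO mouse 13, whose summed levels were 30037 and 33507 CPM.

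Between endometrium and myometrium, edgeR's quasi-likelihood test with Benjamini-Hochberg adjustment called 33 of 36 genes lower in endometrium in WT mice, where 6.39% of all genes tested were called lower, and 35 of 36 in KO mice, where 8.71% were. None was called higher. The median log2 fold change of the 36 genes was −2.70 in WT and −2.80 in KO, against 0.01 and 0.08 for all genes tested. The genes not called in WT were Actn1 (−0.49 ± 0.32, SE, adjusted p = 0.367), Srf (−1.09 ± 0.49, 0.161) and Ppp1r12b (−1.30 ± 0.59, 0.165), and in KO Ldb3 (−1.75 ± 0.70, 0.0839). With the mouse as a block the counts were 34 and 36, where 6.98% and 9.55% of all genes were called lower, and with bias-adjusted deviances in that fit they were 33 and 36, beside 7.27% and 10.4%. The endometrium and myometrium groups did not overlap for 24 of the 36 genes in each genotype. This was counted for the 36 genes only, and the share over all genes was not.

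**Figure D2:**
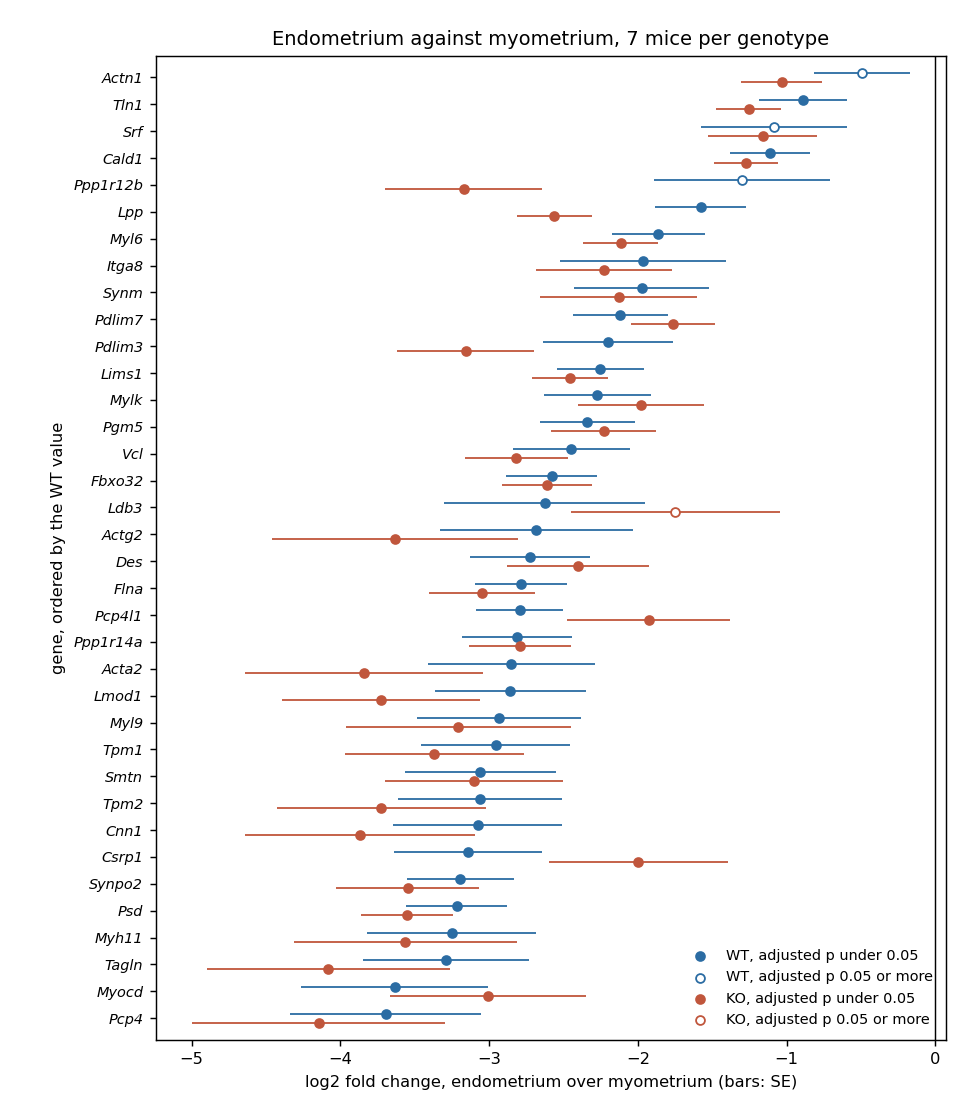
Log2 fold change of each of the 36 genes, endometrium over myometrium, in WT and in KO mice, with SE bars and open symbols where the adjusted p was 0.05 or more. All points lie below 0, from −0.49 for Actn1 in WT to −4.15 for Pcp4 in KO.

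Both smooth muscle actins were called lower in endometrium in each genotype. Acta2, the smooth muscle alpha actin (mm9 chromosome 19, 34315580 to 34329826, minus strand), had a lowest, median and highest level of 60.1, 445 and 3833 CPM in the endometrium of WT mice and 4567, 5883 and 9643 CPM in their myometrium. In KO mice the corresponding values were 16.7, 109 and 3197 CPM in endometrium and 4859, 7616 and 10776 CPM in myometrium. The 2 tissues did not overlap in either genotype, and the highest endometrium samples were WT mouse 3 and KO mouse 13. The log2 fold change was −2.85 ± 0.56 in WT (adjusted p = 0.000865) and −3.84 ± 0.80 in KO (adjusted p = 0.00125). Actg2, the gamma actin of visceral muscle (chromosome 6, 83462899 to 83486259, minus strand), ranged from 30.9 to 3555 CPM in WT endometrium and from 12.1 to 2845 CPM in KO endometrium. In myometrium it ran from 2633 to 8931 CPM in WT and from 3682 to 8467 CPM in KO. One WT endometrium sample therefore reached into the myometrium range for Actg2, while no KO sample did. Its fold changes were −2.68 ± 0.65 and −3.63 ± 0.83. How any reads shared between related genes such as the actins were counted is not stated.

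Among the myosin genes, 5 of 6 were called lower in WT endometrium and 6 of 6 in KO. Myh11, the smooth muscle myosin heavy chain, had log2 fold changes of −3.25 ± 0.57 in WT and −3.56 ± 0.75 in KO. Myl9, the regulatory light chain (chromosome 2, 156601156 to 156607394, plus strand), had a median of 241 CPM in WT endometrium and 3252 CPM in WT myometrium. In KO mice its medians were 81.5 and 4426 CPM, and 6 of the 7 KO endometrium samples lay between 33.4 and 123 CPM with mouse 13 at 2884 CPM. Myl6, the essential light chain, which non-muscle myosin also carries, changed less between the layers. It ranged from 703 to 4781 CPM in WT endometrium and from 5497 to 11061 CPM in WT myometrium, without overlap. Its fold changes were −1.86 ± 0.31 in WT and −2.11 ± 0.25 in KO. Mylk, the light chain kinase, was lower by a similar amount (−2.27 ± 0.36 and −1.98 ± 0.43). Ppp1r14a, an inhibitor of myosin phosphatase, had −2.81 in WT and −2.79 in KO. Ppp1r12b, a targeting subunit of that phosphatase, was measured near the floor: its highest value in any sample was 23.1 CPM, and its KO fold change was −3.17 ± 0.53.

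All 7 thin filament genes were called lower in endometrium in both genotypes, with medians of −3.06 in WT and −3.72 in KO. Tagln, the actin-binding protein transgelin (chromosome 9, 45737711 to 45744141, minus strand), had 67.8, 257 and 2595 CPM as its lowest, median and highest level in WT endometrium and 3994, 5829 and 7626 CPM in WT myometrium. In KO mice these were 10.6, 63.7 and 2261 CPM in endometrium and 3961, 6977 and 8553 CPM in myometrium. The tissues were apart in both genotypes, and the fold changes were −3.29 ± 0.56 and −4.08 ± 0.82. Tpm2, a tropomyosin that lies along the actin filament (chromosome 4, 43527583 to 43536637, minus strand), had medians of 711 and 7995 CPM in WT and of 143 and 9983 CPM in KO, endometrium first. Tpm1 had fold changes of −2.96 in WT and −3.37 in KO, Cnn1 (calponin) −3.08 and −3.87, Smtn (smoothelin) −3.06 and −3.10, and Lmod1 (leiomodin, an actin nucleator) −2.86 and −3.73. Cald1, caldesmon, which is made in many cell types, had the smallest difference of the class (−1.11 ± 0.27 and −1.27 ± 0.22).

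Desmin and synemin, the intermediate filament proteins, were both called lower in endometrium. Des (chromosome 1, 75356904 to 75365154, plus strand) had a median of 339 CPM in WT endometrium and 3644 CPM in WT myometrium, and of 333 and 4168 CPM in KO. The WT tissues did not overlap, since endometrium reached 1598 CPM and myometrium began at 1916 CPM. In KO, mouse 13 had 3307 CPM in endometrium, above the lowest myometrium value of 3072 CPM, which came from the same mouse. Synm, at a median of 11.4 CPM in WT endometrium and 59.1 CPM in WT myometrium, had fold changes of −1.98 ± 0.46 and −2.13 ± 0.53.

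Of the 13 genes of adhesion sites and dense plaques, 12 were called lower in WT endometrium and 12 in KO. Flna, the actin crosslinker filamin A (chromosome X, 71468800 to 71495159, minus strand), ran from 90.4 to 461 CPM in WT endometrium and from 652 to 1625 CPM in WT myometrium. In KO mice it ran from 81.9 to 577 CPM and from 1336 to 1609 CPM. The layers were apart in both genotypes, and the fold changes were −2.79 ± 0.31 and −3.05 ± 0.36. Csrp1, a LIM domain protein of actin bundles, differed more in WT (−3.14 ± 0.50) than in KO (−1.996 ± 0.60) by its point estimates, a difference that the interaction test below did not call. That order rested on KO mouse 13. Without this mouse the KO value of Csrp1 was −3.59 ± 0.42, and without WT mouse 3 the WT value was −3.47 ± 0.50. Synpo2, a partner of actin and alpha-actinin, had −3.19 and −3.55. Vcl (vinculin) had −2.45 and −2.82, Lims1 −2.25 and −2.46, Itga8 (an integrin alpha chain) −1.97 and −2.23, Pgm5 −2.34 and −2.23, Pdlim3 −2.20 and −3.16, Pdlim7 −2.12 and −1.76, and Lpp −1.58 and −2.56. Ldb3 (a PDZ and LIM domain protein of the alpha-actinin anchor) had −2.63 in WT. The smallest differences of the class were those of Tln1 (talin), with −0.89 ± 0.30 and −1.25, and Actn1 (an alpha-actinin), with −0.49 ± 0.32 and −1.03.

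The transcription regulators differed in how clearly the layers separated. Srf (chromosome 17, 46683788 to 46693111, minus strand) had a median of 14.3 CPM in WT endometrium and 26.6 CPM in WT myometrium, and of 10.9 and 29.3 CPM in KO. Its ranges overlapped in both genotypes, from 3.62 to 37.7 CPM against 1.97 to 94.8 CPM in WT. It was called lower in KO (−1.16 ± 0.36, adjusted p = 0.026) and not in WT. Myocd (chromosome 11, 64990063 to 65083491, minus strand) had 4 counts in the endometrium of all 7 WT mice together and 61 in their myometrium. In KO mice it had 15 and 62 counts. In each genotype 5 of the 7 endometrium samples held no Myocd count at all, whereas each myometrium sample held some. Its fold changes were −3.63 ± 0.63 and −3.005 ± 0.66, which for so few counts depend on the prior count of the fit.

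Both calmodulin-binding proteins were called lower in endometrium. Pcp4, which speeds the exchange of calcium on calmodulin (chromosome 16, 96689213 to 96747400, plus strand) had the largest WT fold change of the group, with 6.5, 55.5 and 872 CPM as its lowest, median and highest level in WT endometrium and 1308, 2917 and 3512 CPM in WT myometrium. In KO mice it had 5.46, 20 and 976 CPM and 1218, 3058 and 4160 CPM. Its fold changes were −3.69 ± 0.64 and −4.15 ± 0.85. The gene overlaps Igsf5 on the same strand. Its relative Pcp4l1 had −2.79 ± 0.29 in WT and −1.93 ± 0.55 in KO. Fbxo32, a ubiquitin ligase component known from muscle wasting, had medians of 27.3 and 209 CPM in WT and of 34.6 and 233 CPM in KO. Psd, an exchange factor for Arf6, had medians of 11.5 and 85.2 CPM in WT and of 5.46 and 67.4 CPM in KO. The layers did not overlap for either gene, and their fold changes were between −2.58 and −3.55 in both genotypes.

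One endometrium sample in each genotype stood apart in these genes. KO mouse 13 was the highest of 7 KO endometrium samples in 33 of the 36 genes, with a summed level of 33507 CPM, whereas the other 6 lay between 2957 and 4887 CPM. WT mouse 3 was the highest of the WT samples in 31 genes, with 30037 CPM, and the other 6 lay between 2708 and 13073 CPM. In KO mouse 13, relative to the median of the other 6 mice, the 32 genes for which this ratio could be formed were 1.22 to 63.0 times as high, with a median of 9.18. The ratio was 63.0 for Pcp4, 48.6 for Myh11, 45.5 for Cnn1 and 35.3 for Acta2, but 2.89 for Myl6 and 1.22 for Tln1. The endometrium of mouse 13 thereby reached a median of 58.6% of the myometrium level of the same animal. WT mouse 3 had a median ratio of 3.80 and reached 38.6% of its own myometrium. Both samples were also the highest of their groups in summed skeletal muscle markers, with 183 CPM in mouse 13 against 6.37 to 12.7 CPM in the others and 167 CPM in mouse 3 against 10.2 to 63.7 CPM. In the 8 epithelial markers mouse 13 had 2882 CPM, within the range of its group, while mouse 3 had the lowest level of its group with 1573 CPM. The pericyte markers of mouse 13 lay within the range of the other KO mice at 253 CPM, and those of WT mouse 3 are not given here. Stromal and fibroblast markers are not given here by mouse, so whether they too were high in the 2 samples is not shown. All 3 libraries of the endometrium of mouse 13 were summed, and each was high by itself. The 36 genes made up 3.31%, 2.97% and 3.61% of their gene counts, against 0.294% to 0.462% in the libraries of the other KO mice. The part of these cell types in the values of the 2 samples was not tested. WT mouse 3 also had the highest sum of the 36 genes in WT uterus (48922 CPM) and in WT myometrium (87043 CPM).

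**Figure D3:**
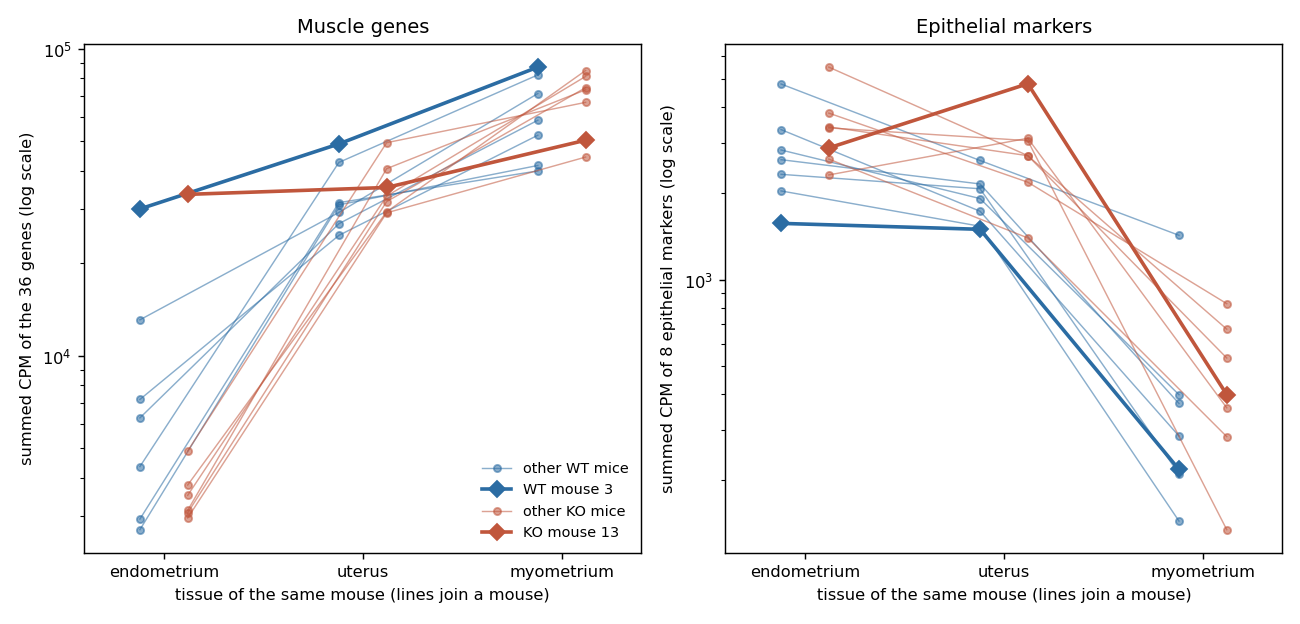
Summed CPM of the 36 genes (left) and of 8 epithelial markers (right) in each mouse, by tissue and genotype, on log scales, with WT mouse 3 and KO mouse 13 as diamonds. In endometrium these mice reach 30037 and 33507 CPM for the 36 genes, among the uterus samples, while their epithelial sums are 1573 and 2882 CPM.

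Without these mice the layer differences were larger. Leaving out KO mouse 13 moved 22 of the 35 called KO fold changes by more than 1.5 times, and the median went from −2.80 to −3.72. Acta2 went from −3.84 to −6.44 ± 0.45 and Pcp4 from −4.15 to −7.37 ± 0.44, whereas Myl6 went from −2.11 to −2.51 and Actn1 from −1.03 to −1.08. Ldb3 was then called (−4.60 ± 0.82, adjusted p = 0.000214). Leaving out WT mouse 3 moved 14 of 33 WT fold changes by more than 1.5 times, with Acta2 at −3.75 ± 0.49, Pcp4 at −4.85 ± 0.59 and a median of −3.02, and Ppp1r12b was then called (−2.005 ± 0.66, adjusted p = 0.0462). Leaving out any other mouse moved no called fold change by this much. With the mouse as a block, which weighs each animal's own difference, and bias-adjusted deviances, the Acta2 fold change was −3.85 ± 0.39 in WT and −6.03 ± 0.57 in KO. The blocked fit without that adjustment gave −3.88 ± 0.29 and −6.09 ± 0.40, with an unbounded prior in WT, so that its SE there is that of the trend over genes and not of Acta2 itself.

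**Figure D4:**
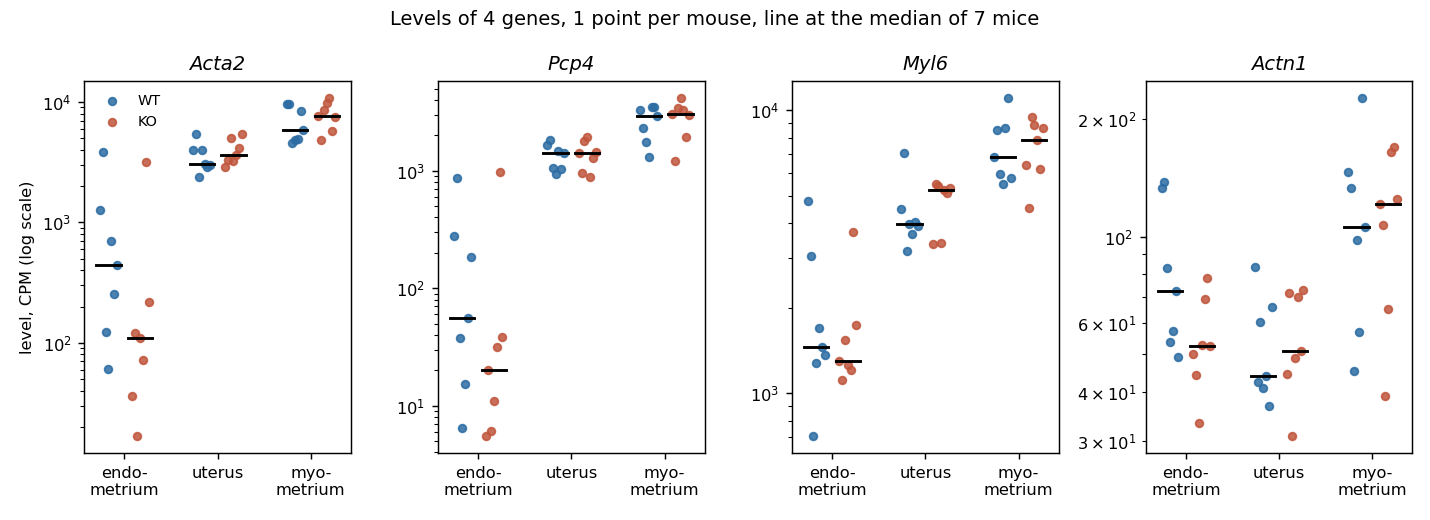
CPM of Acta2, Pcp4, Myl6 and Actn1 in each mouse by tissue and genotype on log scales, with the group median as a line. Pcp4 has the largest WT layer difference and Actn1, chosen after its values were seen, the smallest, with WT medians of 72.5 CPM in endometrium and 106 CPM in myometrium.

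Intact uterus, which holds all layers, lay below myometrium. The test called 25 of 36 genes lower in uterus in WT mice, where 5.32% of all genes were, and 30 in KO mice, where 6.06% were. The medians were −0.94 and −1.03. Acta2 had 2364, 3070 and 5367 CPM as its lowest, median and highest level in WT uterus and 2858, 3620 and 5438 CPM in KO uterus, and its fold change against myometrium was −0.95 ± 0.21 in WT and −0.99 ± 0.20 in KO. Not all genes lay about midway. Flna in WT uterus, from 141 to 457 CPM, had a fold change of −2.08 ± 0.24 against myometrium and of 0.67 ± 0.32 against endometrium, the latter not called. Lpp (−1.88 ± 0.25) and Psd (−2.11 ± 0.29) were likewise called lower than in myometrium and not called against endometrium. By contrast, Csrp1 (−0.47 ± 0.37), Pcp4l1 (−0.34 ± 0.26) and Cald1 (−0.34 ± 0.23) were not called in WT uterus, and with libraries scaled by spike-in RNA they were at 0.26, 0.39 and 0.38, below the median of all genes, which was then 0.75. With the mouse as a block 27 and 31 genes were called lower, where 5.65% and 7.94% of all genes were, and with bias-adjusted deviances 28 and 31, beside 6.48% and 8.56%. Uterus was between the other tissues in 7 of 7 mice for 10 genes in WT and 12 in KO, with no share over all genes counted. When libraries were scaled by the spike-in RNA, 4 and 7 genes were called lower in uterus, beside 1.01% and 1.33% of all genes. That scaling raised the median of all genes in this comparison by 0.71 in WT and by 0.43 in KO, and relative to all genes the members were at −1.01 and −0.96. With all 6 groups in 1 fit the counts were 10 and 11, beside 3.89% and 4.68% of all genes.

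Uterus against endometrium gave 12 genes called higher in uterus in WT mice, where 1.05% of all genes were, and 9 in KO mice, where 0.926% were. The medians were 1.55 and 1.59. In WT, Pcp4l1 (2.41 ± 0.33, adjusted p = 0.000724) and Csrp1 (2.62 ± 0.53, 0.0126) were called, and in KO, Myl6 (1.46 ± 0.25, 0.0068). Acta2, at 1.87 ± 0.57 in WT and 2.86 ± 0.80 in KO, was not (adjusted p = 0.104 and 0.0771). These counts changed with the pairing and with each mouse left out. With the mouse as a block 26 genes were called in each genotype, where 3.05% and 2.28% of all genes were, and with bias-adjusted deviances in the blocked fit 25 and 23, beside 2.79% and 2.26%. Without WT mouse 3 the count in WT was 24, where 1.42% of all genes were called higher, and without KO mouse 13 the count in KO was 28, where 2.11% were. Leaving out any other WT mouse gave between 2 and 5 genes, where 39 to 91 genes of the whole table were called higher, beside 138 with all WT mice. Leaving out any other KO mouse gave between 1 and 3, with the share of all genes not given here.

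Whether loss of Plag1 alters this muscle program was addressed by KO against WT within each tissue. No gene of the group was called in uterus, endometrium or myometrium by edgeR within each tissue, and no gene of the whole table was (0% in each tissue). DESeq2 called no member, and of the whole table it called 7 genes in uterus, 1 in endometrium and 0 in myometrium. With all 6 groups in 1 edgeR fit no member was called either, beside 7 genes of the table in endometrium and 0 in the other tissues. The group medians were 0.03, −0.14 and 0.15 on the log2 scale, against −0.05, 0.02 and −0.03 for all genes. Before adjustment, p was under 0.05 for 0 members in uterus, 1 in endometrium and 2 in myometrium, beside 5.64%, 5.2% and 4.22% of all genes. In endometrium 34 of the 36 genes passed the filter on low counts, and Myocd and Ldb3 did not. The smallest p in uterus belonged to Lpp, which had 48.6, 122 and 134 CPM in WT and 52.7, 128 and 265 CPM in KO (0.43 ± 0.29, adjusted p = 0.92). The ranges overlapped, and 3 of the 7 KO mice lay above every WT mouse. In endometrium it was Actn1, with 49.2, 72.5 and 138 CPM in WT and 33.4, 52.5 and 78.5 CPM in KO (−0.59 ± 0.28, adjusted p = 0.952). Within plate rows A to C, which held 5 WT and 3 KO mice, the difference of its log2 means was −1.02, and within rows D to F, with 2 WT and 4 KO mice, it was 0.06. In myometrium Lmod1 had 134, 297 and 372 CPM in WT and 227, 396 and 673 CPM in KO (0.67 ± 0.23, adjusted p = 0.99 in edgeR), with differences of 0.64 and 0.38 within the rows.

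The genotype medians in endometrium followed the same 2 mice. Without KO mouse 13 the median of the group was −0.81 and 16 of 34 genes had an unadjusted p under 0.05, beside 5.28% of all genes, none of them called (smallest adjusted p = 0.349). Without WT mouse 3 the median was 0.40. Within plate rows A to C, which hold WT mouse 3, the median difference was −0.90, and within rows D to F, which hold KO mouse 13, it was 0.25. Only 11 of the 36 genes had the same sign in both sets of rows. In uterus and myometrium 17 and 19 genes did.

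The difference between genotypes in the layer effect was tested as an interaction. Without the pairing of tissues from the same mouse it called 0 of the 36 genes, and 0% of all genes were called. Before adjustment 2 had a p under 0.05, beside 4.6% of all genes, the smaller being that of Lpp (−0.98 ± 0.40, adjusted p = 0.993), and DESeq2 called none. With the mouse as a block, edgeR called 8 genes with a larger layer difference in KO, all of them members, where 0.0559% of all genes were called in that direction. They were Acta2 (−2.23 ± 0.35, adjusted p = 2.49e-06), Actg2 (−2.15), Cnn1 (−2.06), Tagln (−2.04), Myh11 (−1.78), Pcp4 (−1.72), Myl9 (−1.54) and Tpm2 (−1.46 ± 0.34, adjusted p = 0.023). In that fit the estimated prior was unbounded, so that every gene was given the spread of the trend and not its own. Once the deviances were adjusted for bias, which gave 44.2 prior degrees of freedom beside 12 residual ones, the blocked fit called 0 of 14314 genes. The estimate for Acta2 was then −2.18 ± 0.64 with an adjusted p of 0.884, and 12 of the 36 genes had an unadjusted p under 0.05, beside 4.51% of all genes. The limma-voom fit with the same block called none either. Leaving 1 mouse out of the blocked fit with the unbounded prior gave 4 calls without WT mouse 1, WT mouse 3, KO mouse 2, KO mouse 6 or KO mouse 9, 5 without WT mouse 12 or KO mouse 11, and 7 to 11 otherwise. These are counts of members, and the shares of all genes called in the same fits are not given here. Leaving 1 mouse out of the fit without the pairing called 0 members each time, while the median of the 36 estimates went from −0.25 to −1.05 without KO mouse 13 and to 0.33 without WT mouse 3. Spike-in scaling of that fit put the median of all genes at 0.35, with Myh11 at 0.31, Myl9 at 0.36 and Pcp4 at 0.23, which is −0.047, 0.0089 and −0.12 relative to that median.

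Per mouse, the spread of these differences was wide. For Acta2 the difference in log2(CPM + 1) between endometrium and myometrium was −3.91 ± 1.71 in the 7 WT mice and −5.93 ± 2.60 in the 7 KO mice (SD), and in KO it ran from −8.91 to −0.85, the latter being mouse 13. An exact two-sided permutation test over all 3432 splits of the mice gave unadjusted p between 0.114 and 0.301 for the 8 genes. Without KO mouse 13 the range was 0.0035 to 0.049, without WT mouse 3 it was 0.205 to 0.538, and without both it was 0.0065 to 0.0887. The 8 genes were chosen because the blocked fit called this same difference in the same mice. The 2 mice were singled out by these genes. The p values are therefore no independent test of the difference, and the spread over mice is given by the SDs.

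**Figure D5:**
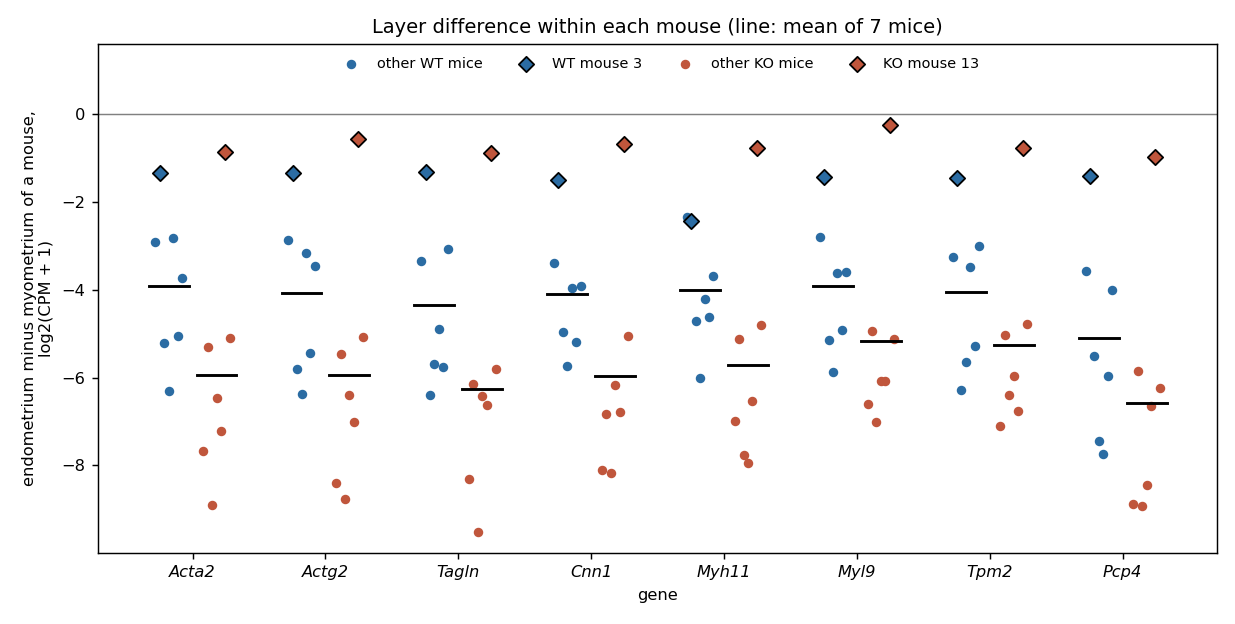
Endometrium minus myometrium in log2(CPM + 1) for each mouse in the 8 genes called in the blocked fit, WT and KO side by side, with the mean as a line. For Acta2 the means are −3.91 in WT and −5.93 in KO, and KO mouse 13 lies at −0.85.

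Other genes of smooth muscle, from a list that holds none of the 36, were also lower in endometrium. Of 46 genes for calcium handling, contraction signalling and related functions, 45 were tested between endometrium and myometrium. In WT 32 were called lower and none higher, with a median of −1.45, and in KO 35 were, with a median of −1.57. The largest WT differences belonged to Pln (phospholamban, −3.97 ± 0.69), Dmd (dystrophin, −3.11 ± 0.44) and Kcnmb1 (a subunit of the large conductance potassium channel, −3.03 ± 0.55). A list of 20 cytoskeletal relatives that are not restricted to muscle was mixed, with 3 called higher and 5 lower in WT and 4 higher and 6 lower in KO, and medians of −0.22 and −0.17. The largest WT differences there were those of Cnn2 (−1.997 ± 0.30), Lims2 (−1.79 ± 0.38) and Tln2 (−1.73 ± 0.44). KO against WT called 0 genes of either list in any tissue.

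Markers of other cell types changed with the layers as follows. All 8 epithelial markers were called higher in endometrium in both genotypes, with medians of 2.75 and 3.01, led by Cldn3, Krt19 and Epcam. Of 8 stromal and fibroblast markers, 6 were called lower in each genotype, led by Lum (−3.23 ± 0.39 in WT), Col3a1 and Col1a1. Pericyte and vascular muscle markers were called lower for 3 genes in WT and 5 in KO, led in WT by Kcnj8, Mcam and Pdgfrb, while no endothelial marker was called in either. Among leukocyte markers 2 were called higher in WT and 4 in KO, the WT ones being Cd52 and Laptm5, and of the mesothelial markers 0 and 2 were called lower. The skeletal muscle list was Ckm, Actn3, Tnnt3, Tnni2, Acta1, Myh4, Mybpc2 and Myod1, of which only 6 passed the filter and were tested. Of these, 5 were called lower in WT and 6 in KO, led by Tnnt3 (−4.88 ± 0.55), Tnni2 (−3.99 ± 0.59) and Acta1 (−3.31 ± 0.54). The sum of the list ran from 221 to 948 CPM in WT myometrium and from 10.2 to 167 CPM in WT endometrium. Whether these counts come from skeletal muscle cells was not tested. WT mouse 5, whose myometrium had the high epithelial sum, had the lowest value of the WT myometrium samples in 20 of the 36 genes. The part of these cell types in the differences above was not tested.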

How the data were processed

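RNA from 3 uterine tissues of 14 mice was sequenced with STRT, a protocol for 5′ transcript ends with unique molecular identifiers. The authors demultiplexed reads, merged identifiers, aligned to mm9 and counted per gene, and deposited raw counts; the labels name HTSeq, the study's methods Homer, and the strand setting and treatment of shared reads are not given in the sources used here. Libraries held 264095 to 1232992 counts, and the floor of 3 counts covers counting error only. The SEs come from the fits, and the SDs are over mice. Repeat libraries (3 of KO mouse 13 endometrium, 2 of WT mouse 12 myometrium) were summed. The 92 spike-in rows stayed out of the fits. In R 4.3.3, edgeR 4.0.16 (trimmed mean of M-values factors, quasi-likelihood test, genes at 1 CPM or more in at least 5 samples) gave log2 fold changes, SEs and p-values adjusted over all genes tested at a threshold of 0.05. Each comparison used only its own groups. DESeq2 1.42.0 and limma 3.58.1 served as alternatives, and scripts were tested on simulated data.

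Tissues were paired by animal, from the mouse numbers in the labels: deviations from the group means correlated at a mean r of 0.0785 to 0.178 for the same mouse and −0.0293 to −0.0132 for different mice, and fits with the mouse as a block were run beside the main ones. The description of the series states 8 mice per genotype, and 7 were analysed here. By the wells in the labels, uterus lay in plate rows A and D, myometrium in B and E, and endometrium in C and F. The exceptions were repeat wells of KO mouse 13 endometrium in D and E and of WT mouse 12 myometrium in F. A comparison of tissues is therefore also a comparison of plate rows. p-values treat the mice as independent. In comparisons of tissues without the block, they also treat the tissues of the same mouse as independent. Levels are given per mouse for the 2 genes of each role with the highest mean CPM, layer fold changes for any gene, genotype and interaction values for the smallest p and for genes called with or without the block, and list genes by the 3 largest WT changes. The genes and lists were chosen with earlier results of these data known. Promoter sequences are RefSeq's on GRCm38.p6, gene positions on mm9, and no position was converted.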

Additional observations from a re-analysis of the deposited data

Results flagged for a closer look

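Among the 2 most abundant genes of each role, 96 groups of 7 mice were screened for a sample far from the rest (Dixon's criterion on log2(CPM + 1)), and 8 groups (8.33%) held one, where chance gives about 1 in 20. Of these, 6 were the endometrium of KO mouse 13. In that sample Myl6 had 3702 CPM against 1114 to 1738 CPM in the other 6 mice, Myl9 2884 CPM against 33.4 to 123 CPM, Tpm2 3951 CPM against 81.9 to 335 CPM, Des 3307 CPM against 168 to 587 CPM, Flna 577 CPM against 81.9 to 132 CPM, and Pcp4 976 CPM against 5.46 to 38.0 CPM. Acta2 and Tagln, high in the same sample, are given with the layers above. In uterus, Actg2 was set apart in WT mouse 3 (5758 CPM against 1396 to 2486 CPM) and Des in KO mouse 14 (6323 CPM against 1492 to 2477 CPM), and mouse 14 had the highest value of KO uterus in 21 of the 36 genes. The epithelial sum of KO mouse 13 endometrium lay within its group at 2882 CPM.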

How the results depend on the processing

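Counts of called members stayed within 1.5 times the reported count in 168 cases under other settings and did not in 38. Uterus against myometrium, 25 in WT and 30 in KO, gave 4 and 7 with spike-in scaling and 10 and 11 with all 6 groups in 1 fit. Uterus against endometrium in WT, reported as 12, gave 26 with spike-in scaling, 7 with a filter at 10 CPM, 26 with the mouse as a block, 25 with the block and bias-adjusted deviances, 28 with the block and without mouse 3, and 2 to 24 when 1 mouse was left out. In KO, reported as 9, it gave 20 with DESeq2, 0 with spike-in scaling (25 at an unadjusted p under 0.05), 15 with 1 library per mouse, 21 with all 6 groups, 26 with the block, 23 with the block and bias-adjusted deviances, 28 with the block and without mouse 13, and 1 to 28 with 1 mouse left out. In WT, 138 of 13091 genes of the table were called higher in the reported fit and 504 with spike-in scaling. The filter at 10 CPM gave 110 of 7305 genes, the block 399, and the block with bias-adjusted deviances 365. Leaving out 1 mouse gave 39 to 181. In KO, 0.926% of all genes were called higher in the reported fit, 2.28% with the block and 2.26% with bias-adjusted deviances. KO shares for the other settings are not given in this section. The interaction, 0 without the pairing, gave 8 with the mouse as a block and 4 to 11 when 1 mouse was left out of that fit. For the interaction with 1 mouse left out, the share of all genes called is not given. The block changed no other count by over 1.5 times.

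Of the fold changes, 3443 kept their direction and side of the threshold, 259 lost the call, 329 gained it and 36 reversed. With spike-in scaling, uterus against myometrium reversed in WT for Des (0.12), Pcp4l1 (0.39), Cald1 (0.38), Csrp1 (0.26), Pdlim3 (0.16) and Pdlim7 (0.042) and in KO for Pcp4l1 (0.16) and Srf (0.063), uterus against endometrium for Lpp in WT (0.36) and Tln1 in KO (−0.017), and the interaction for Myh11 (0.31), Myl9 (0.36) and Pcp4 (0.23). That scaling moved all genes: their medians were then 0.75 and 0.42 for uterus against myometrium in WT and KO, 0.53 and −0.14 for uterus against endometrium, and 0.35 for the interaction, so that Lpp was at −0.17 relative to all genes. Actn1, uterus against endometrium in KO, was 0.028 with DESeq2, 0.036 with relative log expression factors, 0.024 with no filter, 0.021 with all 6 groups in 1 fit and 0.16 with the block and without KO mouse 13. With 1 mouse left out, uterus against endometrium ran from −0.091 to 0.18 for Actn1 in KO, from −0.15 to 0.35 for Srf and from −0.062 to 0.36 for Tln1 in WT, and from −0.014 to 0.22 for Tln1 in KO. The interaction ran from the value without KO mouse 13 to that without WT mouse 3, from −3.83 to 0.30 for Actg2, −3.54 to 0.40 for Tagln, −3.49 to 0.40 for Cnn1, −2.91 to 0.34 for Myh11, −2.98 to 0.68 for Myl9, −2.85 to 0.32 for Tpm2 and −3.64 to 0.77 for Pcp4, and without KO mouse 11 it was 0.033 for Myl9. The cause of the reversals was not tested. The low counts of Myocd, Itga8, Ppp1r12b and Ldb3 limit what could be detected for them.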
